A study of Mus musculus with 10 samples.

Results

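Interferon-stimulated genes are the genes that cells switch on when interferons bind their receptors. They were followed here as 44 named mouse genes in skin wounds of diabetic mice and found by their symbols. Of the 44, 42 had a feature naming that gene alone on the array, out of 30738 genes with such a feature. The feature carrying Gbp5 also names Gbp2b, so Gbp5 was left out, and no value was assigned to Ifi44. Where a gene had several features, the brightest by mean over the 10 arrays stood for it. Of the 42 measured members, 40 lay above the level filter, a mean log2 signal of 4.17, and were among the 17638 genes tested. Oas3 and Cxcl10 lay below it and are given as values without a test.

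The animals were male db/db mice of the strain BKS(D)-Leprdb/JOrlRj, a model of obesity with diabetes caused by loss of leptin receptor signalling, aged 11 weeks. Each received 2 full-thickness wounds on the back with a 4 mm punch and, straight afterwards, 0.5 nmol of a microRNA mimic in 100 µl, injected into the skin at 4 points with an in vivo transfection reagent. The 5 control mice received a control mimic and the 5 miR-132 mice a miR-132 mimic, so RNA and reagent were injected in both groups and no uninjected wound was part of the comparison. Wound edges were collected on day 6, and 150 ng of total RNA per sample was hybridised to Clariom D arrays, 1 array per mouse. The labels do not say whether RNA of a mouse came from 1 wound or both. A wound edge holds epidermis, immune cells, fibroblasts, vessels and fat, and in such bulk RNA fewer cells of a type and less RNA per cell cannot be told apart.

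Type I and type III interferons are released when a cell detects foreign nucleic acid, and interferon-gamma comes mainly from T and NK cells. The receptors signal through JAK kinases to STAT proteins. A complex that holds STAT2 and IRF9 binds the interferon-stimulated response element (ISRE), while STAT dimers bind the gamma-activated site (GAS). The induced genes detect viral RNA, block its translation or replication, and tune the response itself. In skin wounds, interferon signals come from immune cells and from the epidermis, and plasmacytoid dendritic cells that enter injured skin are a known source.

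The agent was a mimic of miR-132. The mature mouse miR-132-3p of RefSeq, from chr11:75173723-75173744 on the plus strand of GRCm38.p6, is shown because it is the microRNA delivered, with the seed, bases 2 to 8, in capitals. The sequence of the mimic itself is not given in the labels.
mmu-miR-132-3p: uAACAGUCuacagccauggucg

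The members share promoter features that played no part in choosing them. The ISRE core (GAAA, then 2 bases of any kind, then GAAA) and the GAS core TTCNNNGAA were searched on both strands of the 250 bases upstream of each RefSeq start. An ISRE core was found in 16 of the 34 members with a promoter sequence (47.1%), against 936 of 27025 genes (3.46%). A GAS core was found in 9 of 34 members (26.5%), against 2197 of 27025 genes (8.13%). Both were present in 5 members, and the matches overlapped in 1, Bst2. The 10 members without a promoter sequence were Oas2, Mx1, Usp18, Dhx58, Rtp4, Parp9, Zbp1, Gbp4, Mx2 and Parp14. A match describes the letters in this window and is not a measured binding site.

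The ISRE core was unevenly spread over the roles. All 6 interferon-gamma GTPase genes with a sequence carried one, among them Gbp5, as did 6 of 12 antiviral effectors and 0 of 3 nucleic acid sensors. Among the others it was found in Isg15, Trim30a, Stat2 and Cxcl10. The GAS core was found in Eif2ak2, Irf1, Bst2, Ifit2, Isg20, Oas1a, Gbp5, Gbp7 and Igtp. These are shown for 4 members described below, 5′ to 3′ in the direction of the gene, with the ISRE and GAS cores in capitals. Bst2 (chr8:71537473-71537722, minus strand) has the overlapping cores. Gbp7 (chr3:142530086-142530335, plus strand) has 1 ISRE and 2 GAS cores, its neighbour Gbp3 (chr3:142559794-142560043, plus strand) has 2 overlapping ISRE cores and no GAS core, and Isg15 (chr4:156200819-156201068, minus strand) has 3 overlapping ISRE cores.
Bst2: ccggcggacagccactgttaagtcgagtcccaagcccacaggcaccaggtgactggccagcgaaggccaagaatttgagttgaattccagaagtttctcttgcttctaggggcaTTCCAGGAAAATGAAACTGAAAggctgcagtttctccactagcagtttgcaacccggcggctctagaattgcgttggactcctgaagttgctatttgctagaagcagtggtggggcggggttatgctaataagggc
Gbp7: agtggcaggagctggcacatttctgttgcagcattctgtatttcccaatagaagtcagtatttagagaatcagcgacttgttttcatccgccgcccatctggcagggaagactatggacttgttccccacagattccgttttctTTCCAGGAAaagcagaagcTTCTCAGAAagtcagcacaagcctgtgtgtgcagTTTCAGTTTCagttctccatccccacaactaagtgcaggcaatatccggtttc
Gbp3: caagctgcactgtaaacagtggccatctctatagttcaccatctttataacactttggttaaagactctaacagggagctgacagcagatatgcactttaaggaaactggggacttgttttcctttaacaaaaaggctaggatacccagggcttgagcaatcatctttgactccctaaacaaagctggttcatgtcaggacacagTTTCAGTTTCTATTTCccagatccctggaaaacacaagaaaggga
Isg15: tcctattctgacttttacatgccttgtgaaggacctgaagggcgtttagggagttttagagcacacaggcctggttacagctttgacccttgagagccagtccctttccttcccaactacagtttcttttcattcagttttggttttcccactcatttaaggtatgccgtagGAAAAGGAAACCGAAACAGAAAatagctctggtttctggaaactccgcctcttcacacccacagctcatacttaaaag

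The cores lay at different distances from the start. The nearest ISRE core began 39 bases before the start in Gbp3, 53 in Gbp7, 66 in Isg15 and 124 in Bst2. All coordinates are those of GRCm38.p6.

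At the level of single genes, no member passed the test between miR-132 and control wounds. With limma and Benjamini-Hochberg adjustment over 17638 genes, 0 of 40 members had an adjusted p under 0.05, where the background was 0 of 17638 genes (0.00%), and the smallest adjusted p of any gene was 0.596. At an unadjusted p under 0.05, 0 of 40 members were called, against 1426 genes (8.08% of those tested, 2.48% higher and 5.61% lower). The smallest unadjusted p among the members was 0.153, for Bst2. The 5 miR-132 values overlapped the 5 control values in all 42 members, while 0.930% of all genes tested showed no overlap (0.283% higher and 0.646% lower with miR-132). In direction, 35 of the 42 members had a higher mean with miR-132 and 7 a lower one (33 and 7 of the 40 tested), where 45.0% of all genes tested were higher and 53.6% lower. The median difference of the members, miR-132 minus control, was 0.11 on the log2 scale, against -0.02 over all genes tested. Below the level filter the array leaned towards miR-132 in general: of 13100 genes there, 80.5% had a higher mean with miR-132 and 19.0% a lower one, with a median difference of 0.08. The tested members had mean levels of 4.24 to 8.19, and no share was computed for genes of that level alone.

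The count depended on 1 mouse and on the scaling. Without miR-132 replicate 1, 22 members were higher and 20 lower, and their median difference was 0.01. Among the 40 tested members, 20 were then higher and 20 lower, with a median of -0.0015. Without both miR-132 replicate 1 and control replicate 1, which was also high, 29 members were higher (27 of the 40 tested) and the median was 0.09 (0.07 for those tested). With each array centred on its median, 27 members were higher, with a median of 0.05. With the array's hybridisation controls as a covariate, 40 were higher, with a median of 0.26. These controls read 10.61 and 10.57 in miR-132 replicates 1 and 2, against 10.43 to 10.61 in control wounds. They read 10.9 to 10.98 in miR-132 replicates 3 to 5, so this fit leans on replicates 1 and 2. No member passed the adjusted test under any setting tried.

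The width of the intervals says how large a change these arrays could have missed. Over the 40 tested members, the 95% intervals of the difference reached from -0.95 to 1.26, a 1.93-fold lower to a 2.39-fold higher signal. The interval lay within 2-fold of no change in 36 members and within 1.5-fold in 19. Bounds beyond 2-fold on the higher side occurred in Samd9l, Cxcl9, Usp18 and Xaf1.

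**Figure D1:**
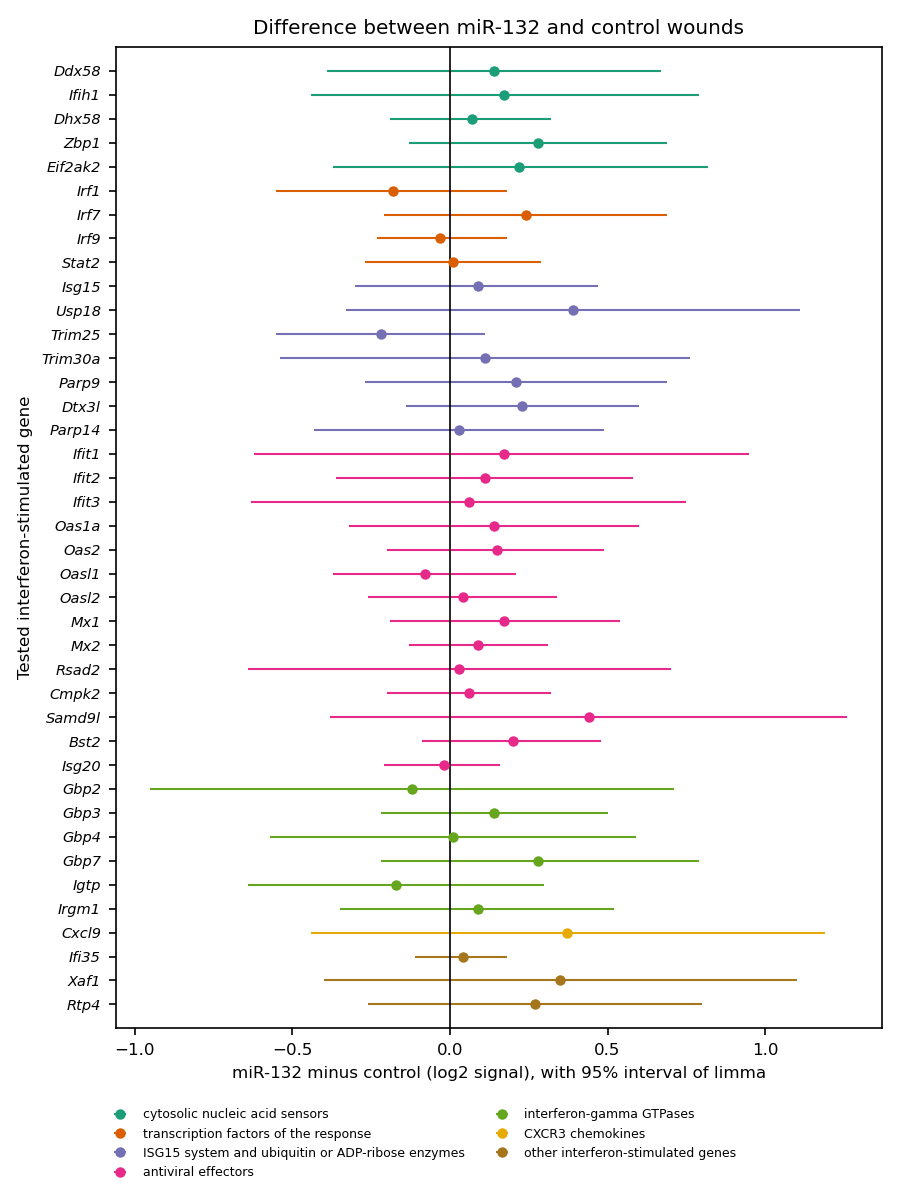
Difference between miR-132 and control wounds for the 40 tested interferon-stimulated genes on the log2 scale (x axis), 1 gene per row; points are mean differences of 5 against 5 mice, bars are limma's 95% intervals and colours mark the roles. Every interval crosses 0, from Trim25 at -0.22 to Samd9l at 0.44.

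The clearest structure lay between mice rather than between treatments. In miR-132 replicate 1, 40 of 42 members stood above their control mean, by a median of 0.61. For 25 members no other array was higher (18.2% of all genes tested had it highest), and for 38 it was among the 2 highest (28.5%). Control replicate 1 stood above the control mean in 39 members, by a median of 0.26, and was the highest array for 9. In miR-132 replicate 5 the median was 0.19, with 34 members above. In miR-132 replicate 3 the median was -0.15, and 16 members had their lowest value there (11.6% of all genes). High and low arrays thus occurred in both groups. Tied values counted for every array that shared them.

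The spread within the groups followed the same mice. The median SD of the members was 0.24 in control and 0.38 in miR-132 wounds, against 0.17 and 0.23 for all genes tested. Without replicate 1 it was 0.17 in control and 0.24 in miR-132 wounds. The SD was larger with miR-132 in 29 of 42 members, and in 22 once miR-132 replicate 1 was left out.

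**Figure D2:**
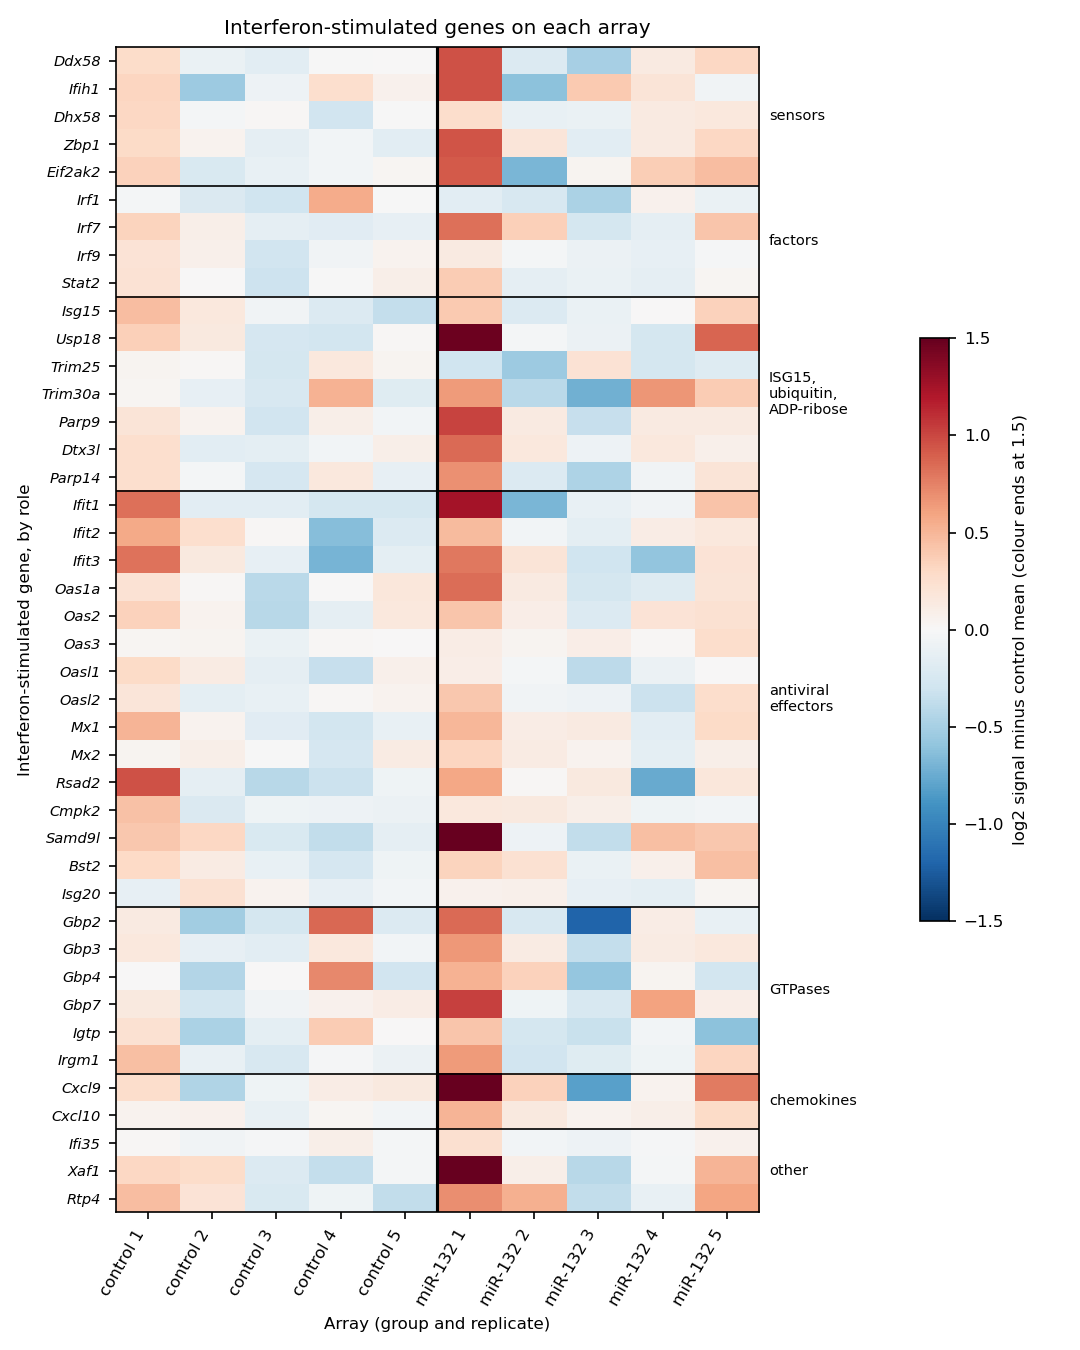
Log2 signal of the 42 measured interferon-stimulated genes on each of the 10 arrays as a difference from the gene's control mean (colour, which ends at 1.5 in both directions); rows are genes ordered by role, columns are mice, and the line parts control from miR-132. miR-132 replicate 1 is above the control mean in 40 of 42 rows and control replicate 1 in 39.

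Markers of other cells shared the members' order of the mice only in part. Fat cell markers (8 of 9 measured, the lowest at a mean of 6.55, so none near the floor) were 2.24 above their control mean in miR-132 replicate 1 and 1.45 above in control replicate 5, but at -0.32 in control replicate 1 and at -0.41 in miR-132 replicate 5. In control replicate 5 the interferon-stimulated genes were at a median of -0.04. Both sets had their highest array in miR-132 replicate 1. All 8 fat cell markers had a higher mean with miR-132, beside 45.0% of all genes tested, with a median difference of 0.32. Without miR-132 replicate 1, 3 of them were higher and 5 lower, with a median of -0.06. The mean log2 level of the fat cell list ranged from 7.79 to 10 in control and from 7.65 to 10.8 in miR-132 wounds. Neutrophil markers (15 of 15 measured) had lower means with miR-132 in 13, with a median difference of -0.50. Their list level ran from 9.33 to 10.92 in control and from 9.32 to 10.01 in miR-132 wounds. Macrophage and monocyte markers were higher in 10 of 17, with levels of 10.08 to 10.75 and 10.09 to 11.06, and in miR-132 replicate 1 they were at -0.36 relative to their control mean. The part of these cells in the values of the interferon-stimulated genes was not tested.

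Lymphocyte markers gave little signal. Of the T and NK cell markers, 7 of 14 lay below the level filter, with list levels of 3.93 to 4.11 in control and 3.98 to 4.23 in miR-132 wounds. Of these 14 markers 13 had a higher mean with miR-132 (12 without miR-132 replicate 1), with a median difference of 0.09. Among all genes below the filter 80.5% were higher, with a median of 0.08. Of the 7 markers tested 6 were higher, beside 45.0% of all genes tested. That share covers genes of every level, while these markers reached a mean of at most 4.71, close to the filter. No share was computed for genes of that level alone. All 5 measured B cell markers lay below the filter.

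Dendritic cell markers had higher means in 8 of 9 (7 without miR-132 replicate 1), with a median of 0.05. Of the 9, 4 lay below the filter, where 80.5% of all genes were higher. Of the 5 tested 4 were higher, beside 45.0% of all genes tested, but at low mean levels of 4.25 to 5.53. Cd209a, a lectin of dendritic cells, differed by 0.44 (limma unadjusted p = 0.0135, adjusted p = 0.596). Among the plasmacytoid dendritic cell markers 5 of 7 passed the filter. A higher mean was found in 5 of 7 (4 without miR-132 replicate 1), with list levels of 6.64 to 7.11 in control and 6.68 to 7.09 in miR-132 wounds. That level is carried by Ly6d, at a mean of 16.81, a gene that keratinocytes also express. Siglech, a defining receptor of these cells, was at 4.62 in control and 4.79 in miR-132 wounds (difference 0.16, limma unadjusted p = 0.0411, adjusted p = 0.608). The other tested markers of this list differed by 0.07 (Ccr9), 0.02 (Tcf4), -0.27 (Cox6a2) and -0.75 (Ly6d). The part of these cells was not tested either. The epidermal markers that define the labelled tissue were well above the filter. All 10 basal keratinocyte genes were tested and had lower means with miR-132, beside 53.6% of all genes tested, with a median of -0.27. Of the 10, 2 had a limma unadjusted p under 0.05, beside 5.61% of all genes called lower. Differentiated keratinocyte genes had 3 higher and 7 lower means of 11 (median -0.40). Skeletal muscle genes had lower means in 8 of 8 (median -0.58). Their part in the members' values was not tested. The array's hybridisation controls averaged 10.54 ± 0.07 (SD, n = 5) in control and 10.80 ± 0.19 (SD, n = 5) in miR-132 wounds. The higher mean came from miR-132 replicates 3, 4 and 5, at 10.98, 10.9 and 10.95.

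The sensors of foreign nucleic acid leaned one way. All 5 had a higher mean with miR-132, also with arrays centred or quantile normalised again, with differences from 0.07 to 0.28 and a median of 0.17, and none passed the test. Without miR-132 replicate 1, 3 were higher and 2 lower. Zbp1, which senses Z-form nucleic acid and can trigger cell death, read 5.94, 5.71, 5.52, 5.62 and 5.50 in control replicates 1 to 5, and 6.60, 5.84, 5.50, 5.79 and 5.97 in miR-132 replicates 1 to 5. The groups overlapped, and miR-132 replicate 1 was the highest array. The difference was 0.28 ± 0.18 (SE, limma), with an adjusted p of 0.702.

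Eif2ak2, the kinase PKR that halts translation on binding double-stranded RNA, showed a wider spread. It read 8.27, 7.70, 7.81, 7.89 and 7.96 in control wounds and 8.85, 7.24, 7.97, 8.29 and 8.39 in miR-132 wounds, in replicate order. Both the highest and the lowest array were miR-132 mice. The difference of 0.22 ± 0.27 (SE) had a limma adjusted p of 0.842. Ddx58, which encodes the RNA sensor RIG-I, differed by 0.14, Ifih1, the long-duplex sensor MDA5, by 0.17, and their regulator Dhx58 by 0.07. Without miR-132 replicate 1, these became -0.07, -0.02 and 0.02, with Zbp1 at 0.12 and Eif2ak2 at 0.05.

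The transcription factors of the response were split, 2 with a higher and 2 with a lower mean (1 and 3 without miR-132 replicate 1). Irf7, which amplifies the type I interferon response, read 5.66, 5.42, 5.19, 5.16 and 5.21 in control wounds. It read 6.15, 5.68, 5.06, 5.19 and 5.74 in miR-132 wounds. Irf7 was high in miR-132 replicates 1, 2 and 5 and in control replicate 1, and the difference was 0.24 ± 0.20 (SE, limma adjusted p = 0.780). Irf1, an early factor downstream of interferon-gamma, read 6.51, 6.33, 6.24, 7.10 and 6.54 in control wounds and 6.38, 6.30, 6.07, 6.61 and 6.45 in miR-132 wounds. Its highest array was control replicate 4, and its difference was -0.18 ± 0.16 (SE, limma adjusted p = 0.790). Irf9 and Stat2, subunits of the complex that binds the ISRE, had differences of -0.03 and 0.01. Their 95% intervals were -0.23 to 0.18 and -0.27 to 0.29.

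The genes of the ISG15 system and the ubiquitin and ADP-ribose enzymes, taken as 1 role, had 6 of 7 members with a higher mean (5 with arrays centred on their medians, 4 without miR-132 replicate 1) and a median difference of 0.11. ISG15 is a ubiquitin-like protein that is attached to other proteins, and Usp18 removes it and dampens the type I receptor. Isg15 read 4.92, 4.62, 4.41, 4.25 and 4.10 in control wounds and 4.85, 4.26, 4.36, 4.47 and 4.80 in miR-132 wounds. Its highest array was control replicate 1, and the difference of 0.09 ± 0.17 (SE) had a limma adjusted p of 0.917. Usp18 is described because of its spread, chosen after its values were seen. It read 4.90, 4.70, 4.30, 4.27 and 4.57 in control wounds and 6.02, 4.52, 4.46, 4.28 and 5.42 in miR-132 wounds. Only miR-132 replicates 1 and 5 exceeded every control mouse, and the SD was 0.75 against 0.27. The difference was 0.39 ± 0.32 (SE, limma adjusted p = 0.769), and it was 0.12 without miR-132 replicate 1.

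The ubiquitin and ADP-ribose enzymes held both directions. Trim25, the ubiquitin ligase that acts with RIG-I, had the lowest difference of all members. It read 8.34, 8.31, 8.04, 8.46 and 8.34 in control wounds and 8.0, 7.75, 8.52, 8.04 and 8.10 in miR-132 wounds. Here 4 of 5 miR-132 mice lay below the control mean, while miR-132 replicate 3 had the top value of the 10 arrays. The difference was -0.22 ± 0.15 (SE, limma adjusted p = 0.717). Dtx3l, a ubiquitin ligase that works as a pair with Parp9, read 6.33, 5.92, 5.93, 6.03 and 6.16 in control wounds and 6.92, 6.23, 6.00, 6.23 and 6.15 in miR-132 wounds. Its difference was 0.23 (adjusted p = 0.726 with limma) and that of its partner Parp9 was 0.21; without miR-132 replicate 1 they were 0.08 and 0.01. Trim30a differed by 0.11 and Parp14, an ADP-ribosyltransferase, by 0.03.

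Antiviral effectors, the proteins that act on viral RNA, membranes or nucleotides, were the role with the most members. Of 15 measured, 13 had a higher mean and 2 a lower one (9 and 6 with arrays centred on their medians), with a median of 0.11 and a range from -0.08 (Oasl1) to 0.44 (Samd9l). Without miR-132 replicate 1, 8 were higher and 7 lower, with a median of 0.02. Samd9l, a restriction factor that stops translation, read 6.89, 6.80, 6.26, 6.12 and 6.35 in control wounds and 8.27, 6.41, 6.11, 6.94 and 6.89 in miR-132 wounds. A single mouse, miR-132 replicate 1, stood far above the rest. The difference of 0.44 ± 0.37 (SE), a 1.36-fold higher signal, had a limma adjusted p of 0.772 and was 0.10 without that mouse.

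Bst2, or tetherin, which holds budding virus at the cell surface, had the smallest p of the members and did not depend on that mouse. It read 5.17, 4.99, 4.76, 4.62 and 4.80 in control wounds and 5.20, 5.10, 4.77, 4.94 and 5.32 in miR-132 wounds. The groups overlapped over most of their range, with 4 of 5 miR-132 mice above the control mean. The difference was 0.20 ± 0.13 (SE, limma adjusted p = 0.701), and 0.16 without miR-132 replicate 1. Mx1, a GTPase that traps viral nucleocapsids, read 4.91, 4.46, 4.23, 4.13 and 4.29 in control wounds and 4.90, 4.51, 4.54, 4.24 and 4.69 in miR-132 wounds. The 2 highest values, 4.91 and 4.90, came from 1 mouse of each group, and the difference was 0.17 ± 0.16 (SE, limma adjusted p = 0.791).

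In several effectors control replicate 1 stood above the other controls, and 3 of them are given here, chosen after their values were seen. Ifit1, which binds viral RNA lacking cap methylation, read 6.13, 5.14, 5.14, 5.04 and 5.04 in control wounds and 6.55, 4.61, 5.19, 5.25 and 5.72 in miR-132 wounds. Ifit3, its partner, read 6.85, 6.19, 5.92, 5.34 and 5.89 in control wounds and 6.83, 6.23, 5.74, 5.45 and 6.24 in miR-132 wounds. In both genes replicate 1 was the highest array of its group, in control and in miR-132 wounds alike. Rsad2, or viperin, which makes a chain-terminating nucleotide, read 6.35, 5.26, 4.98, 5.07 and 5.33 in control wounds and 5.98, 5.41, 5.55, 4.64 and 5.57 in miR-132 wounds. The differences were 0.17, 0.06 and 0.03, each smaller than its SE of 0.35, 0.31 and 0.30, and each turned negative without miR-132 replicate 1 (-0.11, -0.12 and -0.11). Without replicate 1 of both groups they were positive again, at 0.10, 0.08 and 0.13.

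The remaining effectors differed little between the groups. Among the oligoadenylate synthetases, which activate RNase L, the differences were 0.14 for Oas1a, 0.15 for Oas2, -0.08 for Oasl1 and 0.04 for Oasl2. Oas3, below the level filter, ranged from 3.79 to 3.93 in control and from 3.91 to 4.15 in miR-132 wounds, a difference of 0.11 without a test, beside the general lean of genes below the filter. Ifit2 differed by 0.11, Mx2 by 0.09, Cmpk2, the mitochondrial kinase encoded beside Rsad2, by 0.06, and the exonuclease gene Isg20 by -0.02.

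The interferon-gamma GTPases, which attack membranes around intracellular microbes, had 4 of 6 members higher and 2 lower (3 and 3 with arrays centred on their medians), with a median difference of 0.05. Without miR-132 replicate 1, 2 were higher and 4 lower, with a median of -0.08. Gbp7 read 6.65, 6.23, 6.45, 6.57 and 6.62 in control wounds and 7.53, 6.44, 6.26, 7.11 and 6.60 in miR-132 wounds. Gbp3 read 5.41, 5.12, 5.09, 5.40 and 5.21 in control wounds and 5.90, 5.37, 4.89, 5.37 and 5.40 in miR-132 wounds. Both genes were highest in miR-132 replicate 1. Their differences were 0.28 ± 0.23 and 0.14 ± 0.16 (SE), with limma adjusted p of 0.758 and 0.835, and 0.10 and 0.01 without that mouse.

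In other GTPase genes the high control mouse was another one, and these are shown for that reason, chosen after their values were seen. Gbp2 read 7.15, 6.50, 6.76, 7.88 and 6.81 in control wounds and 7.87, 6.78, 5.82, 7.13 and 6.91 in miR-132 wounds. Gbp4 read 6.27, 5.83, 6.28, 6.99 and 5.98 in control wounds and 6.79, 6.61, 5.69, 6.31 and 6.00 in miR-132 wounds. Igtp, which encodes the immunity-related GTPase Irgm3, read 6.10, 5.40, 5.73, 6.26 and 5.88 in control wounds and 6.29, 5.61, 5.54, 5.83 and 5.26 in miR-132 wounds. In all 3 genes control replicate 4 was the highest control mouse and miR-132 replicate 1 the highest miR-132 mouse. The differences were -0.12 for Gbp2, 0.01 for Gbp4 and -0.17 for Igtp, with SEs of 0.37, 0.26 and 0.21, and Irgm1 differed by 0.09.

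Effectors and GTPases therefore ranked the control mice differently. Control replicate 1 was the highest control mouse for 12 of 15 effectors and 3 of 6 GTPases (29.8% of all genes tested). Control replicate 4 was the highest control mouse for 0 of 15 effectors and 3 of 6 GTPases (25.8%), and the lowest for 9 of 15 effectors and 0 of 6 GTPases (25.8%). On that array the effectors averaged -0.25 and the GTPases 0.36 relative to their control means. Neutrophil markers were also highest there, 0.64 above their control mean, but other marker lists stood apart on that array too. Endothelial markers were at 0.37, fat cell markers at -0.76, differentiated keratinocyte markers at -0.75 and skeletal muscle markers at -1.95. The part of any of these cells in the pattern was not tested. Irf1 shared the high value of control replicate 4 with Gbp2, Gbp4 and Igtp. This pattern was noticed in the values and has no test.

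**Figure D3:**
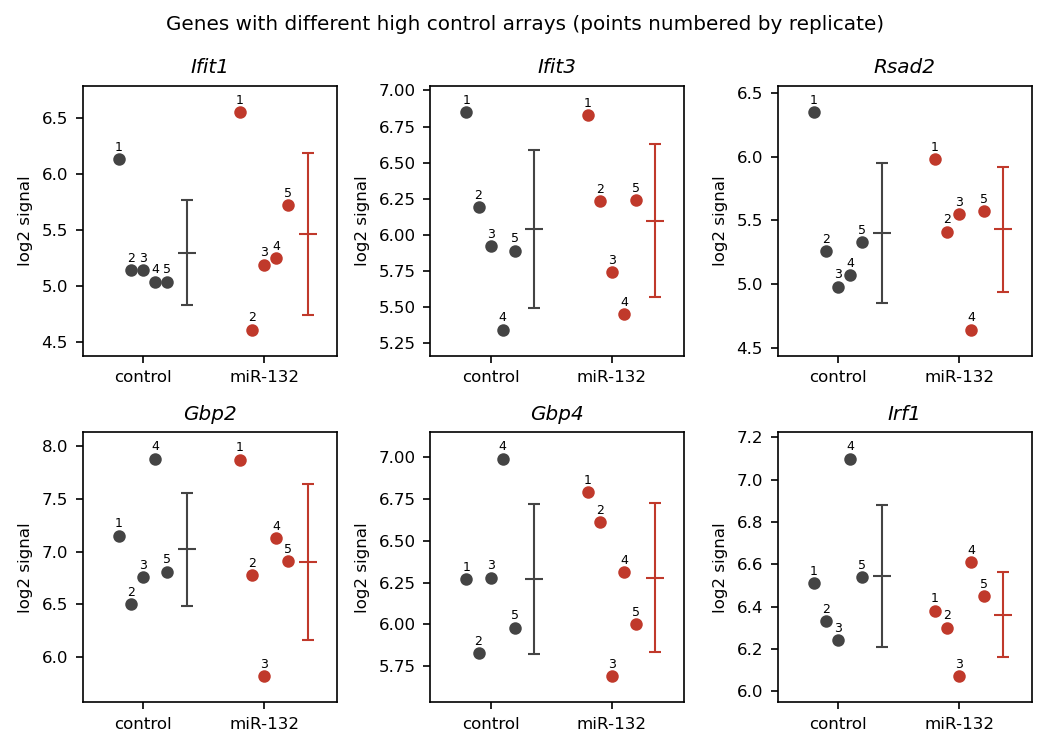
Log2 signal (y axis) of Ifit1, Ifit3, Rsad2, Gbp2, Gbp4 and Irf1 in each mouse, control in grey and miR-132 in red, with points numbered by replicate and bars giving mean and SD (n = 5 mice a group). Control replicate 1 is the highest control mouse for Ifit1 (6.13), Ifit3 (6.85) and Rsad2 (6.35), and control replicate 4 for Gbp2 (7.88), Gbp4 (6.99) and Irf1 (7.10).

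The chemokines that draw CXCR3-bearing T cells both had higher means. Cxcl9 read 5.82, 5.11, 5.50, 5.67 and 5.71 in control wounds and 7.06, 5.91, 4.75, 5.62 and 6.34 in miR-132 wounds. The miR-132 mice held both the 3 highest values and the lowest one. The difference of 0.37 ± 0.37 (SE) had a limma adjusted p of 0.797, and it was 0.09 without miR-132 replicate 1. Cxcl10, below the level filter, read 3.88, 3.89, 3.71, 3.85 and 3.78 in control wounds and 4.33, 3.97, 3.87, 3.91 and 4.11 in miR-132 wounds. All 5 miR-132 mice lay above the control mean of 3.82, and the groups overlapped at miR-132 replicate 3. Its difference of 0.22 was not tested. Among all 13100 genes below the filter, 18.8% likewise had all 5 miR-132 values above the control mean.

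The 3 other members measured had higher means (2 of 3 with arrays centred on their medians or without miR-132 replicate 1), with differences from 0.04 to 0.35. Xaf1, which binds the apoptosis inhibitor XIAP, read 7.06, 7.02, 6.54, 6.39 and 6.71 in control wounds and 8.33, 6.83, 6.33, 6.72 and 7.25 in miR-132 wounds. Rtp4, a chaperone-like protein induced by type I interferon, read 5.77, 5.51, 5.08, 5.24 and 4.94 in control wounds and 6.01, 5.84, 4.94, 5.20 and 5.90 in miR-132 wounds. Xaf1 was far higher in miR-132 replicate 1 than in any other mouse, while Rtp4 was high in 3 miR-132 mice. The differences were 0.35 ± 0.34 and 0.27 ± 0.24 (SE, limma adjusted p = 0.796 and 0.788), and 0.04 and 0.16 without miR-132 replicate 1. Ifi35 differed by 0.04.

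**Figure D4:**
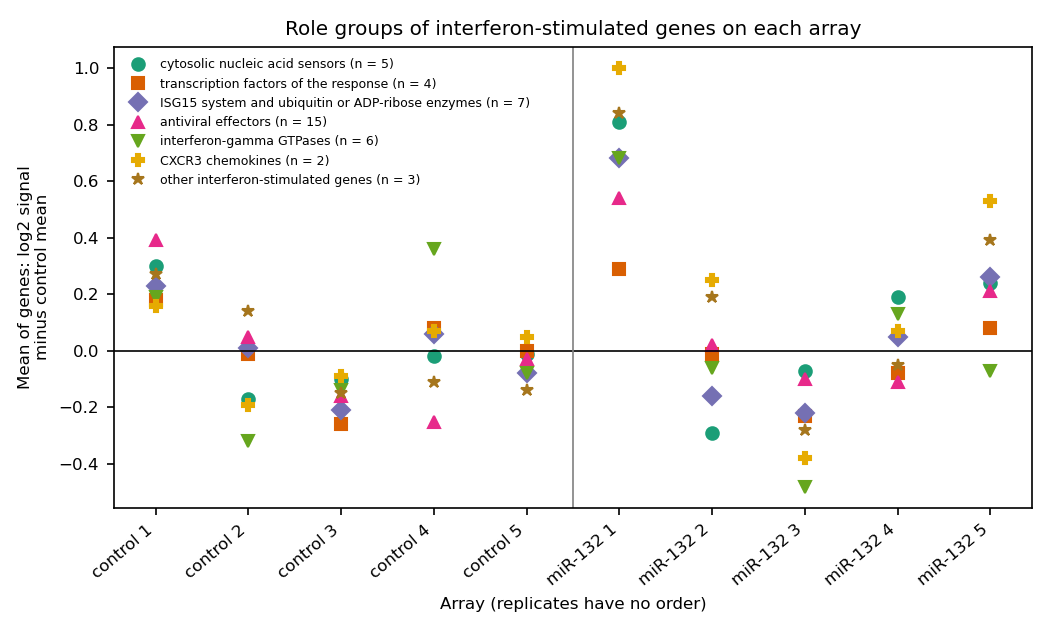
Mean over the genes of each role of the log2 signal minus the gene's control mean (y axis) on each of the 10 arrays (x axis); marker shape and colour give the role, with the number of measured genes in the key. In miR-132 replicate 1 every role lies above 0, from 0.29 for the transcription factors to 1.0 for the chemokines, and in control replicate 4 the GTPases (0.36) and effectors (-0.25) part.

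The presence of an ISRE core did not separate the members by their difference. The 15 measured members with a core had a median difference of 0.11 and the 17 with a promoter sequence but no core also 0.11. In miR-132 replicate 1 they stood 0.63 and 0.47 above their control means, and in control replicate 1 they stood 0.22 and 0.27 above. These medians are descriptions without a test.

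The interferon genes themselves gave little signal. Of 19 measured ligand genes, 18 lay below the level filter, and Ifng read 3.28 ± 0.07 (SD, n = 5) in control and 3.35 ± 0.20 (SD, n = 5) in miR-132 wounds. The 1 ligand tested, Ifnl3, differed by -0.04. Ifna16, named after its values were seen, lay below the filter and had values of 3.84, 4.05, 3.90, 3.58 and 3.92 in control wounds and 4.30, 4.78, 4.15, 4.08 and 4.92 in miR-132 wounds. Its groups did not overlap and differed by 0.59, without a test; no other of the 19 ligand genes had groups without overlap. Of the 13100 genes below the filter, 1.45% had every miR-132 value above every control value. Ifna16 was highest in miR-132 replicates 5 and 2, the arrays with the narrowest span of signal and the highest median signals (4.25 and 4.31), and the part of this in its difference was not tested. The genes for alpha interferons are near-identical copies that can share probes.

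Upstream of the members, the receptors and their signalling genes mostly had lower means. Of 6 receptor genes tested, 5 were lower, with a median of -0.12 and 0 at an unadjusted p under 0.05, beside 53.6% lower and 8.08% called among all genes tested. Ifnar1, a subunit of the type I receptor, differed by -0.21, and the interferon-gamma receptor genes Ifngr1 and Ifngr2 by -0.24 and -0.18. All 4 measured genes for receptor kinases and STATs had lower means, with a median of -0.23, and 1 of the 4 was called lower at an unadjusted p under 0.05 (5.61% of all genes). Jak1 differed by -0.24 (unadjusted p = 0.159) and Tyk2 by -0.10 (unadjusted p = 0.0587) with limma. These 4 genes were lowest on miR-132 replicate 2, at -0.69 relative to their control means. That array had the narrowest span of signal and was the lowest for 28.7% of all genes tested. Without it Jak1 differed by -0.13, and the part of this array in the lower means was not tested.

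Stat3, which carries signals of interferons and of many cytokines in wounds, was lower with miR-132 by the unadjusted test alone. It read 9.66, 9.37, 9.52, 10.1 and 9.72 in control wounds and 8.67, 8.97, 9.60, 9.36 and 8.49 in miR-132 wounds. All 5 miR-132 mice lay below the control mean of 9.67, and miR-132 replicate 3 overlapped the controls. The difference was -0.66 ± 0.23 (SE, limma), with an unadjusted p of 0.0191 and an adjusted p of 0.596.

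Among 7 genes that restrain the pathway, 6 had lower means, and 2 had an unadjusted p under 0.05, beside 5.61% of all genes called lower. Socs1, which blocks JAK kinases, read 4.67, 4.47, 4.46, 4.54 and 4.68 in control wounds and 4.34, 4.36, 4.39, 4.31 and 4.47 in miR-132 wounds. The groups met at 4.46 and 4.47, and the difference was -0.19 ± 0.06 (SE, limma unadjusted p = 0.0114, adjusted p = 0.596). Socs3, a target of STAT3 that blocks signalling through it, read 5.31, 6.03, 5.62, 5.85 and 6.20 in control wounds and 5.18, 5.14, 5.58, 5.56 and 5.49 in miR-132 wounds. All 5 miR-132 mice lay below the control mean, and the difference was -0.41 ± 0.17 (SE, limma unadjusted p = 0.0355, adjusted p = 0.596). Pias1 differed by -0.20, and by -0.09 without miR-132 replicate 2.

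Among 13 genes for sensing and interferon induction, 5 had higher and 7 lower means, with a median of -0.05, and Irf8 had the same mean of 5.45 in both groups. Ikbke, a kinase that activates IRF3 and IRF7, read 6.10 ± 0.18 (SD, n = 5) in control and 5.87 ± 0.11 (SD, n = 5) in miR-132 wounds. Its difference was -0.22 ± 0.09 (SE, limma unadjusted p = 0.0377, adjusted p = 0.596), and it was the 1 gene of the 13 at an unadjusted p under 0.05, a share near the background of 8.08%. Tbk1, the related kinase, differed by -0.22 and Ticam1, the adaptor of TLR3, by -0.13, with unadjusted limma p of 0.0757 and 0.0904.

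A wider list of interferon-stimulated genes also held more higher than lower means. Of 45 measured, 30 had a higher mean (66.7%, against 83.3% of the members, a difference that was not tested) and 15 a lower one. Of the 40 tested, 25 were higher and 15 lower, beside 45.0% higher among all genes tested. None of the 40 reached an unadjusted p under 0.05 (8.08% of all genes). The other 5 lay below the level filter, where 80.5% of all genes were higher. The median difference of the 45 was 0.08, and without miR-132 replicate 1 it was 0.01, with 25 higher and 20 lower. For the 40 tested it was then -0.0045, with 20 higher and 20 lower. Ddx60, a helicase that helps RIG-I, read 6.45, 5.81, 5.70, 5.44 and 5.54 in control wounds and 6.77, 6.12, 5.70, 6.72 and 6.10 in miR-132 wounds. Its difference of 0.49 ± 0.25 (SE) had a limma unadjusted p of 0.0741 and an adjusted p of 0.641. Tor3a differed by -0.10 and Parp10 by -0.14, with unadjusted limma p of 0.0929 and 0.0758.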

How the data were processed

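Per the submitters' processing notes, the authors processed the arrays with Affymetrix Expression Console 1.4 and RMA (background correction, quantile normalization between arrays and probe summary). The deposited values are read as log2 signal because they run from 1.77 to an upper limit of 19.93; the labels name no scale and no genome build for the features. All 10 columns matched a sample by label, and 0 pairs of arrays were identical.

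The table held 72688 features: 31210 with 1 gene in the platform annotation, 1540 with several and 39938 unnamed here. Symbols of 827 were updated through the RefSeq gene table (GRCm38.p6, names only), and 364 genes had several features. Genes with a mean above 4.17, the median of all feature means, were tested with limma 3.58.1 in R 4.3.3 (lmFit, eBayes with intensity trend), two-sided, without covariates, with Benjamini-Hochberg adjustment at 0.05. The procedure was tested on simulated data. Values on every array were given for the 2 members of each role with the smallest unadjusted p and for Isg15, Irf7, Cxcl10 and Mx1, and others so shown were chosen after their values were seen. Other pathway genes were named as the 3 with the smallest unadjusted p in each list, with Ifng. The members, gene lists and roles were chosen with earlier results of these data known. Alternatives were the filter, scaling, hybridisation controls as a covariate, feature averaging, intensity trend, a replicate block and leaving out arrays. The number of arrays limits the precision. Promoter and microRNA sequences are RefSeq's.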

Additional observations from a re-analysis of the deposited data

Results flagged for a closer look

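In each of 84 sets of 5 arrays (42 members in 2 groups), the gap between the most extreme array and its neighbour was set against the whole range of the group. Chance flags about 1 in 20 such groups, and 5 of the 84 were flagged. Control replicate 1 stood apart in 3 of them. Ifit1 read 6.13 there, with the other controls at 5.04 to 5.14. Rsad2 read 6.35, with the others at 4.98 to 5.33, and Cmpk2, its neighbour in the genome, read 4.65, with the others at 4.00 to 4.15. Dtx3l read 6.92 in miR-132 replicate 1, with the others at 6.00 to 6.23. Oas3, below the level filter, read 3.79 in control replicate 3, with the others at 3.90 to 3.93.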

How the results depend on the processing

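Of the 42 members, 23 kept their direction whichever single array was left out, and no member passed an adjusted p of 0.05 under any setting. Leaving out single arrays gave 0 to 52 genes past that threshold, the 52 without miR-132 replicate 3. At an unadjusted p under 0.05, it gave 331 to 643 genes higher (437 with all arrays) and 618 to 1841 lower (989). The members with a higher mean then numbered 22 to 37, and 13 members turned without miR-132 replicate 1. Genes higher at an unadjusted p under 0.05 numbered 1645 with no level filter and 161 with arrays centred. Genes lower numbered 575 with further quantile normalization, against 612 higher, and 1378 with arrays centred. They numbered 400 without miR-132 replicates 2 and 5, and 540 without miR-132 replicate 1 and control replicate 1, a setting chosen after seeing the data. The causes were not tested.

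Single-array ranges that crossed 0 were -0.07 to 0.30 for Ddx58, -0.02 to 0.37 for Ifih1, -0.003 to 0.14 for Dhx58, -0.10 to 0.03 for Irf9, -0.08 to 0.07 for Stat2, -0.002 to 0.20 for Isg15, -0.03 to 0.32 for Trim30a, -0.13 to 0.15 for Parp14, -0.11 to 0.38 for Ifit1, -0.05 to 0.26 for Ifit2, -0.12 to 0.26 for Ifit3 and -0.03 to 0.24 for Oas1a. They were also -0.05 to 0.13 for Oasl2, -0.11 to 0.27 for Rsad2, -0.05 to 0.04 for Isg20, -0.36 to 0.15 for Gbp2, -0.12 to 0.19 for Gbp4, -0.05 to 0.20 for Irgm1, -0.01 to 0.06 for Ifi35 and, outside the members, -0.004 to 0.13 for Ifng.

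Further quantile normalization turned Irf9 to 0.03, Cmpk2 to -0.0014, Isg20 to 0.03 and Ifng to -0.01. Centring the arrays turned Stat2 to -0.05, Parp14 to -0.03, Ifit3 to -0.004, Oasl2 to -0.02, Rsad2 to -0.03, Cmpk2 to -0.01, Gbp4 to -0.05 and Ifi35 to -0.03. Hybridisation controls as a covariate turned Irf9 to 0.06, Oasl1 to 0.01, Isg20 to 0.02, Gbp2 to 0.60 and Igtp to 0.23. Without miR-132 replicates 2 and 5, which had the narrowest spread of signal, Ifit3 was -0.03, Oasl2 -0.0013, Rsad2 -0.01, Gbp4 -0.01, Igtp 0.01, Ifngr1 0.05 and Ifng -0.04. Without replicate 1 of both groups, Stat2 was -0.03, Trim30a -0.01, Parp14 -0.07, Oasl2 -0.0025, Gbp4 -0.12 and Ifi35 -0.01.

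Replicate numbers are shared by the groups, and the labels do not say whether they pair the mice. The correlation of deviations from the group means was 0.16, 0.14, 0.043, -8.7e-05 and -0.03 for numbers 1 to 5. It was best with the own number only for 1 and 2. Such correlations cannot show whether mice of 1 number shared a cage, a day or a batch. The replicate block gave 0 genes past an adjusted p of 0.05, and 468 higher and 806 lower unadjusted. With each number once in both groups, the block cannot change a mean difference, so it says nothing about the direction of the members.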
